A study of Mus musculus with 4 samples.

Results

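The HoxB cluster of the mouse is a row of 10 homeobox genes on chromosome 11, and its DNA methylation in sperm is described here. Its members, Hoxb1 to Hoxb9 and Hoxb13, were taken as named genes and as the stretch chr11:96045000-96240000 of mm9, in which they all lie, a rule on names and positions alone. The stretch holds 3866 listed CG sites, of which 2466 had 5 or more reads in every library, out of 2638319 such sites on chromosomes 1 to 19, X and Y. Windows of 200 bp with at least 3 of these sites numbered 274 of 316993 in the whole series. Windows were counted from position 1 of each chromosome, and the methylation level of a window or gene part is the mean of the levels (methylated reads over all reads) of its sites.

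Hox genes encode transcription factors that give cells of the embryo their position along the body axis, and genes at one end of a cluster act in the hindbrain and those at the other end in the trunk and tail. All members of HoxB are transcribed in one direction, from Hoxb13 towards Hoxb1, and each of them carries the homeobox, which encodes the DNA-binding homeodomain, in its last exon. Clusters of this kind are dense in CG dinucleotides, and such dense stretches are as a rule free of methylation in the germline, while most CG sites elsewhere in sperm DNA are methylated.

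The 4 libraries came from adult wild-type C57BL/6 males, and no genotype or treatment separated them. There were 2 libraries of swim-up sperm, the motile cells taken from the top of the medium. The other 2 libraries were of histone replacement-completed sperm (HRCS), sperm heads freed of their tails by mild sonication and pelleted through 82% Percoll, which the study uses to obtain sperm whose histones have been replaced by protamines. By the study's methods HRCS were made from total sperm of the caudal epididymis and vas deferens, without the swim-up step. Selection for motility and the fraction therefore cannot be told apart. DNA was captured with probes for chosen regions, converted with bisulfite and sequenced (targeted bisulfite sequencing, TGBS). The labels do not say whether libraries of a fraction came from separate mice, so the p-values measure only the spread between these libraries, which may be technical. A library gave between 71379227 and 89403347 calls (1 read at 1 CG site), and a qualifying site of the cluster had a median of 24 to 30 reads in each. In what follows, 4 values in a row are those of swim-up sperm 1, swim-up sperm 2, HRCS 1 and HRCS 2. Each library pools many cells, so that a site methylated in part of the sperm and an admixture of other cells cannot be told apart, although the study's methods include a density step and a lysis step against somatic cells.

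The well-covered windows of the cluster were lowly methylated in sperm, and their mean level was nearly the same in every library. The mean window level was 11.6, 11.8, 11.6 and 11.8%, against 44.3, 44.0, 44.2 and 44.1% over all windows of the series. Of the 274 windows, 227 were at most 25% methylated in all 4 libraries and 12 were over 75% in all 4. Of the 316993 windows of the series, 156080 and 122480 were in these classes. Among single sites, 2188 of 2466 (88.7%) had a mean level of at most 25%, and 636 (25.8%) had no methylated read in any library, with a median of 114 reads per site over the 4 libraries. The flanks of 100 kb on either side were higher in mean level, with 34.6, 33.8, 34.0 and 34.7% over 62 windows. Most flank windows were low too, with 37 of the 62 at most 25% methylated in all 4 libraries and 18 over 75%. The median window level was 4.02% in the flanks and 1.71% in the cluster. The flanks exceeded the cluster by 22.0 to 23.0 percentage points in 4 of 4 libraries (mean 22.6, two-sided exact sign-change permutation test, p = 0.125, the smallest that 4 libraries can give). With a minimum of 20 reads the mean excess was 11.2 points. At the minimum of 5 reads both flanks showed it, with a mean excess of 23.7 percentage points before Hoxb13 and of 20.8 after Hoxb1. Coverage differed as well: 63.8% of the listed sites of the cluster qualified, but 23.0% of those in the flank before it and 14.1% of those in the flank after it. The 1400 sites of the cluster under the minimum of 5 reads were higher, with 29.0, 31.7, 30.7 and 30.2% of their pooled reads methylated, and such sites had means of 71.3 and 60.6% in the flanks before and after it.

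**Figure D1:**
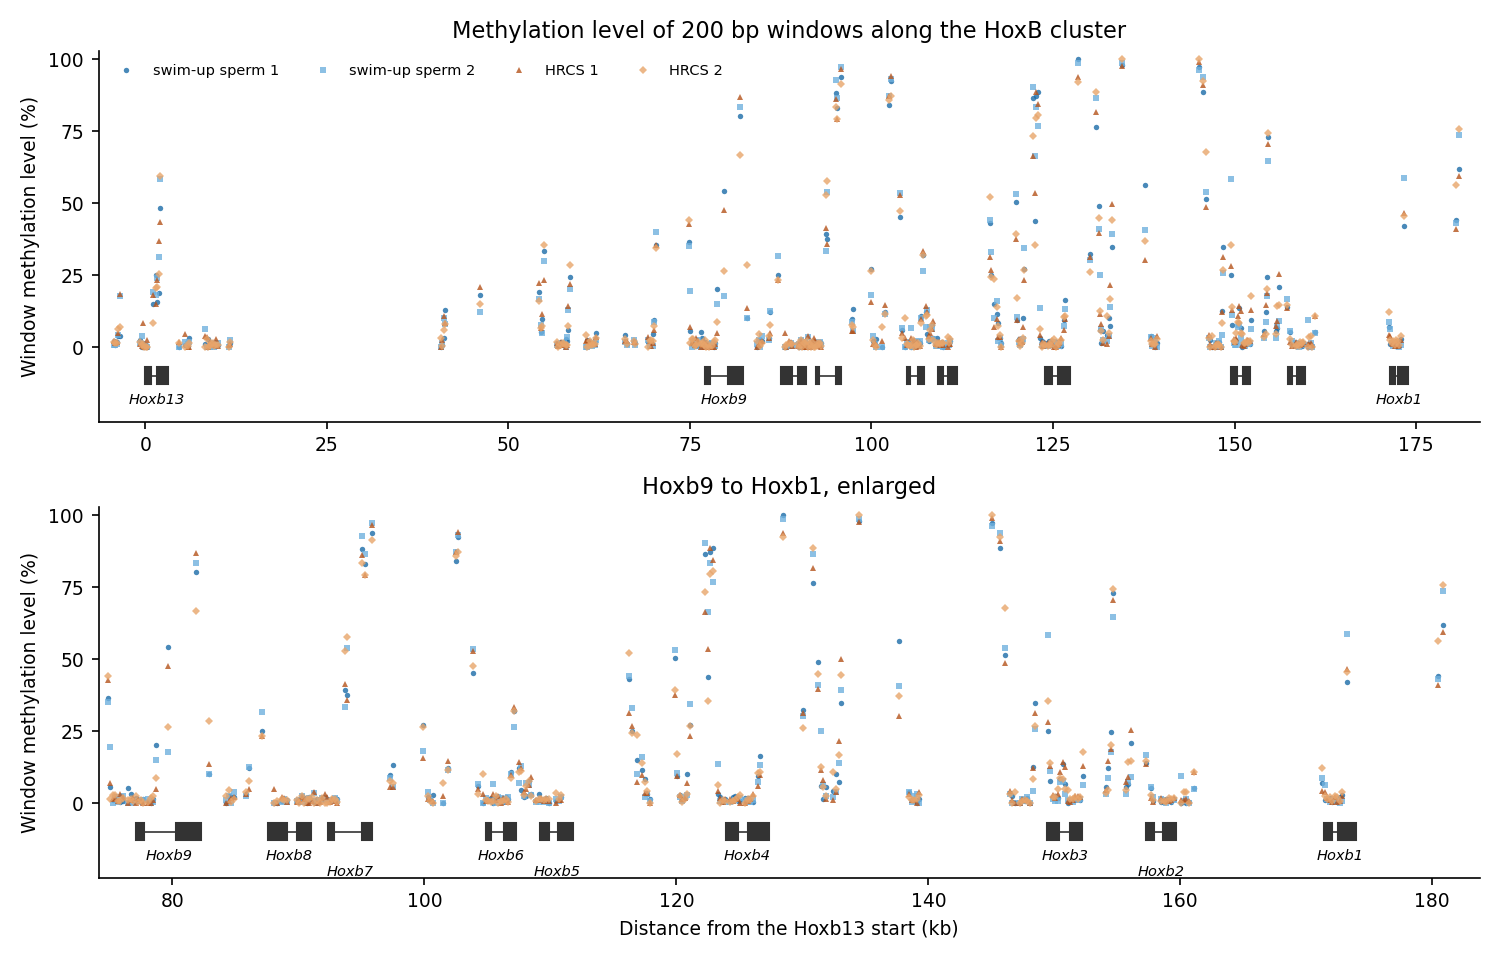
Methylation level (%) of each qualifying 200 bp window against the distance from the Hoxb13 start (kb), for the whole cluster (top) and for Hoxb9 to Hoxb1 (bottom); each point is 1 window in 1 of the 4 libraries, and boxes mark the exons of the 10 genes. Most points lie under 25%, points of the 4 libraries mostly lie close together, and 12 windows between Hoxb7 and Hoxb3 lie over 75% in all 4 libraries.

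Most of the measured start regions of the genes were close to unmethylated. A start region is taken as the 250 bases before and 50 after the start of the main transcript, which is the first that GENCODE lists for the gene. Of the 10 members, 8 had 3 or more qualifying sites there. Of these 8, 6 stayed under 4% in every library, and all 8 stayed at or under 15.9%. The lowest was that of Hoxb13, a gene of the tail and the prostate, at 0% on 11 sites in all 4 libraries. With 73 to 162 calls per library, counts of 0 allow a level of up to 1.85 to 4.11%, a limit for counting error only that takes each call as independent, although 1 read can hold several sites. Hoxb9, which patterns the thoracic ribs, had 1.33, 0.725, 1.196 and 1.74% on 23 sites. Hoxb4, known for its effect on blood stem cells, had 1.15, 0.242, 0.893 and 1.14% on 14 sites. These libraries overlap between the fractions, and so do those of the other members with low starts, Hoxb5, Hoxb6 and Hoxb7.

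Hoxb1 and Hoxb2, which set the identity of hindbrain segments, had the highest starts among those with 3 or more sites. Hoxb1 had 3.14, 8.79, 4.61 and 7.82% on 9 sites, and Hoxb2 had 12.8, 15.9, 12.4 and 14% on 8 sites. The Hoxb2 values thus lay above those of all other members with 3 or more sites in every library. In Hoxb3 1 site of the start region qualified, and in Hoxb8 none of 13 did. The promoter sequences of Hoxb4 and Hoxb1 are shown to set a low start beside a higher one. They are RefSeq sequences of GRCm38.p6, 300 bases on the plus strand, and the distances between their CG dinucleotides occur once on chromosome 11 of the tables, at chr11:96179331-96179630 for Hoxb4 and chr11:96226822-96227121 for Hoxb1 (mm9). Capitals mark the CG dinucleotides, 14 in Hoxb4 and 10 in Hoxb1.
Hoxb4: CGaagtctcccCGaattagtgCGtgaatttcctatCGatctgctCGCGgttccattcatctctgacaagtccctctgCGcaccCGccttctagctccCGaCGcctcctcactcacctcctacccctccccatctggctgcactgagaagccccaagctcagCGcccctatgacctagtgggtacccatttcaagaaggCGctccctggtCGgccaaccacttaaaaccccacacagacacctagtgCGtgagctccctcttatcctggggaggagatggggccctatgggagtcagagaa
Hoxb1: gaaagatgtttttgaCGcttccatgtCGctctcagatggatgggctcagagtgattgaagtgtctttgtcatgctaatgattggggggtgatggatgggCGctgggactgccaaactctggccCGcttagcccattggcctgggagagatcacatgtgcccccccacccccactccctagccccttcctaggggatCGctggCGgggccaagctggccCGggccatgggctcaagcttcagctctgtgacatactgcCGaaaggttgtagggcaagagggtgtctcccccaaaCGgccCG
Over the sites of these 300 bases Hoxb4 had a mean of 0.856% over the libraries and Hoxb1 5.69%. The Hoxb1 values were 2.83, 8.74, 4.15 and 7.03%, so that its libraries were spread more widely within each fraction than between them. For neither promoter was a difference between the fractions found (two-sided exact permutation test, p = 1.0 for both, adjusted p = 1.0 over 2 genes). The promoter of Hoxb8 was matched too but holds no qualifying site, and those of the other members are not in the table of promoters used.

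For the other Hox clusters, described by the placed promoters with 3 or more qualifying sites and by the mean where a gene has several, levels were low too. The median over 8 HoxA genes was 1.21% (range 0.832 to 2.07%), that over 8 HoxD genes was 1.09% (0.379 to 1.82%), and the only HoxC gene placed, Hoxc4, had 1.26%. Genes of the Hox cofactors Meis and Pbx had a median of 1.10% over 4 genes. The 5 regulators of Hox genes with a value had a median of 0.989%, with Cdx4 the highest at 3.32%, and the neighbours of the cluster, Snx11 and Ttll6, had 1.35%. A single promoter of Egr2, 1 of 5 averaged for that gene, was higher, with 16.8, 4.53, 16.3 and 8.34% on 24 sites. In HoxA 1 further gene was placed, Hoxa9, with 1 qualifying site at 0, 2.94, 16.7 and 15%. All genes of these lists with 3 or more sites were at most 25% methylated, and the 2 HoxB promoters were not tested against them.

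The coding part of exon 1 was close to unmethylated in all 10 members, with a range of 0 to 3.92% over the genes and libraries. The coding part of exon 2, which holds the homeobox, was as low in 7 of the 9 members with a value there, but not in Hoxb7 and Hoxb13. Hoxb7, which is active in the ureteric bud and the cervical axis, had 86.0, 90.6, 84.5 and 81.7% in the coding part of exon 2 (chr11:96150691-96150941), on 20 sites with 388 to 610 calls per library. Its exon 1 had 0.818, 1.13, 0.989 and 0.993% on 36 sites. Exon 2 was higher than exon 1 by 80.8 to 89.5 percentage points in 4 of 4 libraries (mean 84.7, two-sided exact sign-change permutation test, p = 0.125, the smallest possible). The same p was given in Hoxb1, Hoxb2, Hoxb6 and Hoxb8, at mean differences of -0.473, -1.8, 0.524 and -0.591 points. Hoxb3, Hoxb4 and Hoxb5 gave larger p-values. This p thus reflects agreement in sign and not the size of a difference. All 20 sites of the coding exon 2 of Hoxb7 were methylated, with site means between 74.3 and 94.4%. Hoxb7 exceeded the mean of the 8 other members with a value by 77.9 to 86.6 percentage points (p = 0.125 in the same permutation test), a comparison chosen after its values were seen.

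Hoxb8, the neighbour before Hoxb7 and a regulator of myeloid cells, was the opposite. Its coding exon 2 (chr11:96145477-96145781) had 0.552, 0.872, 0.647 and 0.377% on 19 sites, and none of those sites had a mean over 3.05%. The sequences of both exons are given because they are similar in their letters and in their number of CG dinucleotides, and yet lie at the opposite ends of the scale in every library. They were read from GENCODE M21 transcripts of GRCm38 and placed on mm9 by the distances between their CG dinucleotides, which are in capitals; both are on the plus strand. Hoxb7 is shown whole (251 bases, 20 CG) and Hoxb8 by its first 300 bases (19 CG).
Hoxb7 exon 2: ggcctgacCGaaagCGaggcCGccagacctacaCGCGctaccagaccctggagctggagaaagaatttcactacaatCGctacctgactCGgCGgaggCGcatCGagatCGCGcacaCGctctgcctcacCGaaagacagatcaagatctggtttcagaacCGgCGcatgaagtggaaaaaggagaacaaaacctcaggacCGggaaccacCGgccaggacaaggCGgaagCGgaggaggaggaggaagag
Hoxb8 exon 2: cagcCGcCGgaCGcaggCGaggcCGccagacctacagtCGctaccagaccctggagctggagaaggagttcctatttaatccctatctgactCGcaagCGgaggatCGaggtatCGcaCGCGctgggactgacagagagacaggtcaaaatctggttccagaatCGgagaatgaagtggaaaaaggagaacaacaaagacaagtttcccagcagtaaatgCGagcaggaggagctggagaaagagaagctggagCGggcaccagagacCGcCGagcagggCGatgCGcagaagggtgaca
Aligned end to end, these sequences share 190 of 240 aligned bases (79.2%), a share that leaves out the bases of each set against gaps. Hoxb7 was higher than Hoxb8 by 85.4, 89.7, 83.8 and 81.4 percentage points in the 4 libraries. How reads that fit more than 1 homeobox were placed is not given in the sources used here, and their part in these levels was not tested.

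**Figure D2:**
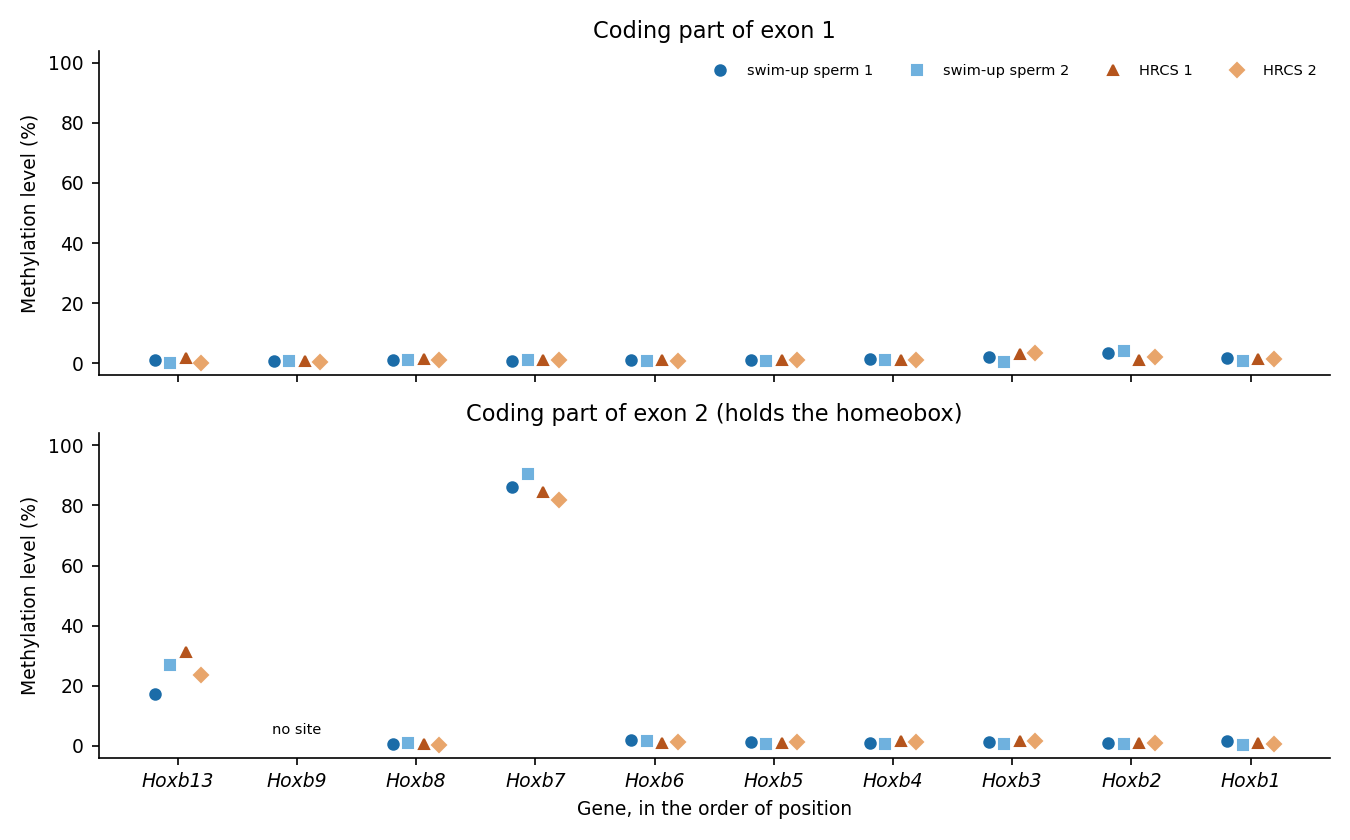
Methylation level (%) of the coding part of exon 1 (top) and of exon 2 (bottom) for each gene, in the order of position; each point is 1 library, and "no site" marks a part without a qualifying CG site. Exon 1 lies at or under 3.92% in every gene, and in exon 2 the 4 libraries of Hoxb7 lie between 81.7 and 90.6% and those of Hoxb13 between 17.4 and 31.3%.

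Along Hoxb7 the level rose within intron 1. The first 500 bp had 1.12, 0.988, 1.16 and 0.872% on 41 sites, and the next 500 bp had 1.52, 1.12, 0.558 and 0.902% on 27 sites. Between 1000 and 1499 bp from the start the level was 34.1, 27.1, 29.1 and 37.4%, and between 1500 and 1999 bp it was 59.1, 70.6, 59.0 and 68.6%, with 5 sites in each step. From there to 2500 bp no site qualified. The 3′ UTR, at 89.8, 92.6, 86.7 and 85.9% on 5 sites, was as high as the coding part. In all 4 libraries the level thus passed 25% in the same step. The methylated stretch, chr11:96150601-96151600, held the longest run of measured windows over 75% in the cluster, 3 windows with levels between 79.2 and 97.5%. This run passes over windows without enough sites.

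**Figure D3:**
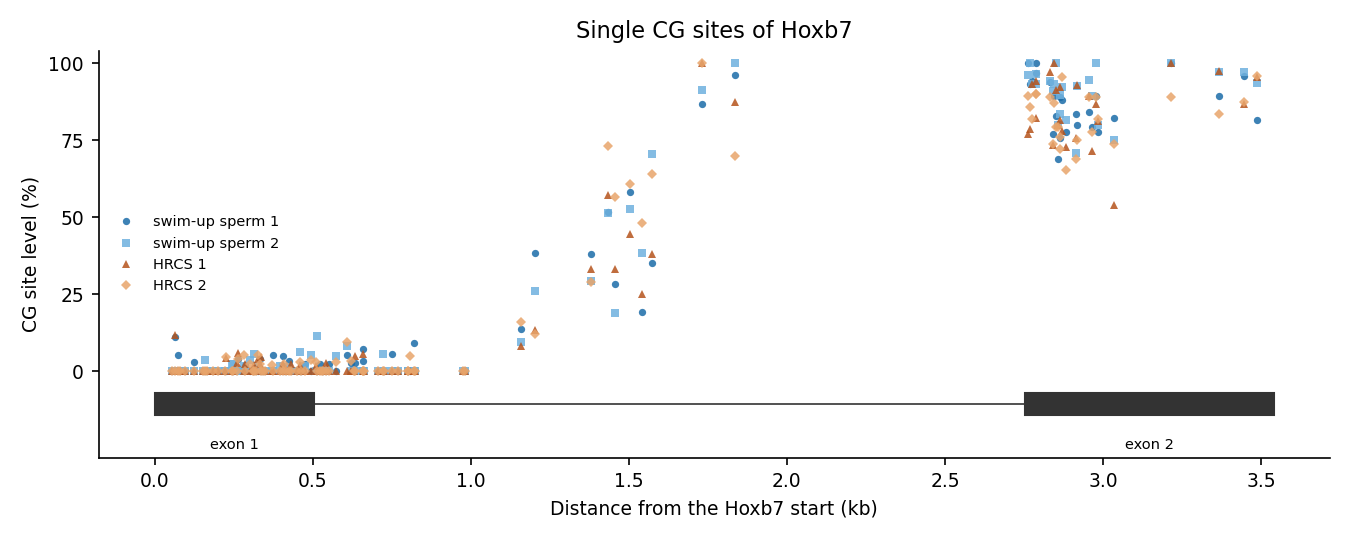
Methylation level (%) of single CG sites of Hoxb7 against the distance from its start (kb), with exons as boxes; each point is 1 site in 1 library, for sites with 5 or more reads in every library. Sites of the first 1000 bp lie near 0%, those at 1000 to 1999 bp climb, and the 20 coding sites of exon 2 have means between 74.3 and 94.4%.

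Methylation at such a CG density was uncommon in the cluster and elsewhere. Windows with 10 to 14 listed CG sites numbered 32403 in the series, and 9.51% of them had a mean level over 75%. In the cluster 2 of 53 did, and both lay in Hoxb7 exon 2, with 11 and 10 sites. Where windows held 15 or more CG sites, none of 40 in the cluster and 0.741% of 39835 in the series were over 75%. The mean of those 40 windows was 1.23%. At the other end, among windows with 3 to 5 CG sites, 9 of 91 in the cluster (9.89%) were over 75%, compared with 59.4% of 166221 in the series.

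Hoxb13 was the other member with a methylated homeobox exon, at an intermediate level. The coding part of its exon 2 (chr11:96057287-96057540) had 17.4, 26.9, 31.3 and 23.7% on 14 sites, where exon 1 had 1.14, 0, 1.62 and 0% on 8 sites. The difference was 16.2 to 29.7 percentage points in 4 of 4 libraries (mean 24.1, two-sided exact sign-change permutation test, p = 0.125). Site means ran from 12.8 to 40.0%, so that the exon held neither fully methylated nor fully unmethylated sites. The 3′ UTR of Hoxb13 had 48.3, 58.6, 43.4 and 59.6% on 6 sites. The sequence of its coding exon 2 is shown for comparison with Hoxb7, and has 14 CG dinucleotides (capitals) in 254 bases. It shares 129 of 201 aligned bases (64.2%) with Hoxb7, where bases set against gaps are again left out.
Hoxb13 exon 2: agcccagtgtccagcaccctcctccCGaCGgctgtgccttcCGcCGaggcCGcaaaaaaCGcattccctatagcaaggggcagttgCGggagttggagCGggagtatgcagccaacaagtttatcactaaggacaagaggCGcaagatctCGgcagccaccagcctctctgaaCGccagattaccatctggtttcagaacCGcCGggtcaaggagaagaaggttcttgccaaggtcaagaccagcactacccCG
In Hoxb9 none of the 8 sites of the coding exon 2 qualified, and 5 sites of its 3′ UTR had 73.3, 74.9, 84.7 and 66.7%, with 71 to 95 calls per library. In Hoxb1 the level changed within exon 2. Its coding part had 0.414 to 1.52%, and its 3′ UTR had 45.8, 51.5, 46.5 and 50.2% on 13 sites, whose means ran from 1.19 to 89.1%. In the remaining members the 3′ UTR of the main transcript was low, with 0.426 to 2.89% in Hoxb2, Hoxb3, Hoxb5 and Hoxb8, and 8.05 to 10.99% in Hoxb4 and Hoxb6. The last exon of a longer Hoxb3 transcript runs on for 1423 bp (chr11:96207822-96209244), and this end had 40.3, 33.3, 37.5 and 33.8% on 9 sites, with site means from 1.0 to 85.7%.

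Over the span of the main transcript the members fell into an order. Longer transcripts, such as those of Hoxb3 and Hoxb6 that start at chr11:96184640 and chr11:96153790, were left out. The order therefore holds for the main transcripts only, and for their qualifying sites. Hoxb7 was the highest, with 26.4, 27.5, 25.5 and 25.8%. Hoxb13 followed with 17.2 to 20.5%, Hoxb1 with 8.32 to 9.32%, and Hoxb9 with 5.80 to 7.29%, and none of these 4 ranges overlapped its neighbour. In Hoxb1 83 of 84 listed sites qualified. In exon 2 of Hoxb9 5 of 23 did, with 66.7 to 84.7%, so the place of Hoxb9 depends on which sites were covered. Hoxb3, which acts in the hindbrain and the pharyngeal arches, had 2.85 to 3.86%, Hoxb6 had 2.52 to 3.14% and Hoxb4 had 2.28 to 3.13%. These 3 overlapped with their neighbours in the order and cannot be ranked, whereas all 3 lay above Hoxb8. Hoxb8 had 0.999 to 1.39%, Hoxb2 1.02 to 1.37% and Hoxb5, a marker of blood stem cells, 0.817 to 1.49%, and these too overlapped.

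Among the qualifying windows outside the main transcripts, methylated ones were found between the genes. The length of these stretches was not measured, since many sites did not qualify. Between Hoxb7 and Hoxb6 118 of 216 listed sites qualified, and between Hoxb4 and Hoxb3 245 of 395. A long stretch of the gap before Hoxb9 without windows, described below, had mostly methylated reads. All 12 windows over 75% in every library lay between the Hoxb7 intron and the main Hoxb3 start. Outside Hoxb7, 2 of them formed a run at chr11:96158001-96158400, with levels of 84.2 to 94.2%. It lay between the main transcripts of Hoxb7 and Hoxb6, 2085 bp before the start of the latter at the nearest. A longer Hoxb6 transcript, with exon 1 at chr11:96153790-96154327 and exon 2 from chr11:96160381, has this run in its first intron. A further run of 2 windows lay at chr11:96178201-96178600, at 981 bp before the start of Hoxb4, with 77.0 to 88.7%, while the start of Hoxb4 itself was near 1%. The other 5 lay between Hoxb4 and Hoxb3, where transcripts of Hoxb3 with upstream starts run through the interval. Among them chr11:96190001-96190200 was the most methylated window of the cluster, with 98.1, 98.9, 97.6 and 100% on 6 sites. The windows at chr11:96200601-96200800 (97.5, 96.2, 99.1 and 100%) and chr11:96184001-96184200 (100, 98.7, 93.7 and 92.3%) came next.

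The intervals between the main transcripts differed accordingly. Over all their qualifying sites, Hoxb7 to Hoxb6 had 25.6, 25.9, 25.5 and 24.4%, Hoxb3 to Hoxb2 had 23.9, 21.0, 23.8 and 23.1%, and Hoxb4 to Hoxb3 had 20.1, 20.2, 19.7 and 20.1%. Hoxb5 to Hoxb4 had 20.3, 20.6, 18.5 and 19.01%. In contrast, Hoxb8 to Hoxb7 stayed at 0.707 to 1.76% on 57 sites, none of them over 25%, and Hoxb6 to Hoxb5 at 3.80 to 5.41% on 70 sites. The steepest step between adjoining windows lay between Hoxb3 and Hoxb2, from 24.5, 17.6, 18.8 and 20.3% at chr11:96210001-96210200 to 73.1, 64.7, 70.7 and 74.5% in the next window. The longest runs of measured windows at most 25% methylated inside the gene-rich part, which pass over windows without enough sites, were 23 windows across Hoxb2 and Hoxb1 (15800 bp, chr11:96212801-96228600, at most 16.8%) and 22 windows across Hoxb8 and the front of Hoxb7 (5200 bp, chr11:96143601-96148800, at most 4.87%). Between Hoxb2 and Hoxb1 47 of 118 listed sites qualified, so that much of the former run was not measured.

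The next comparison set the gap between Hoxb13 and Hoxb9, which holds no Hox gene, against the stretch from Hoxb9 to Hoxb1. The gap was taken as chr11:96060001-96130000 (51 windows) and the gene-rich stretch as chr11:96130001-96240000 (207 windows). In the qualifying windows the gap was the lower part, with 4.61, 4.24, 4.80 and 4.33%, against 13.6, 13.7, 13.3 and 13.8%. The difference was 8.48 to 9.46 percentage points in 4 of 4 libraries (mean -9.08 for gap minus gene-rich stretch, two-sided exact sign-change permutation test, p = 0.125, the smallest possible). The mean difference was -17.3 points in windows of 500 bp, -13.95 with 1 site per window and -5.80 in windows of 100 bp. No gap window exceeded 75% in any library, and 94.1 to 98.04% of them were at most 25%, compared with 82.1 to 82.6% between Hoxb9 and Hoxb1. The 16 windows around Hoxb13 had 8.70, 11.3, 11.1 and 9.76%.

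Windows covered 14.6% of the gap, however, and 37.6% of the gene-rich stretch, and the sites under the minimum gave other values. In the gap 570 of 995 listed sites were under the minimum of 5 reads. Their pooled reads were methylated at 52.8% (95% Wilson interval 49.5 to 56.02), 54.1% (50.4 to 57.7), 52.1% (48.2 to 55.9) and 46.4% (42.5 to 50.4) in the 4 libraries, on 614 to 900 calls. Between Hoxb9 and Hoxb1 the 732 sites under the minimum had 20.9, 26.5, 23.5 and 23.7%. On these sites the gap was therefore the higher part, by 22.7 to 31.9 percentage points in 4 of 4 libraries (mean 27.7, exact sign-change permutation test, p = 0.125). The longest stretch of the gap without a window, chr11:96067401-96096200, holds 311 listed sites, of which 1 qualified. Its reads were methylated at 81.3% (76.2 to 85.5), 79.2% (73.4 to 84.0), 89.6% (84.6 to 93.1) and 82.8% (76.5 to 87.7), on 174 to 267 calls. Of the 570 sites, 229 to 304 had a read in a given library, so the low level of the gap holds for its well-covered sites and part of its length was not measured. The intervals cover counting error only, and whether copies of a molecule made by PCR were removed is not stated.

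**Figure D4:**
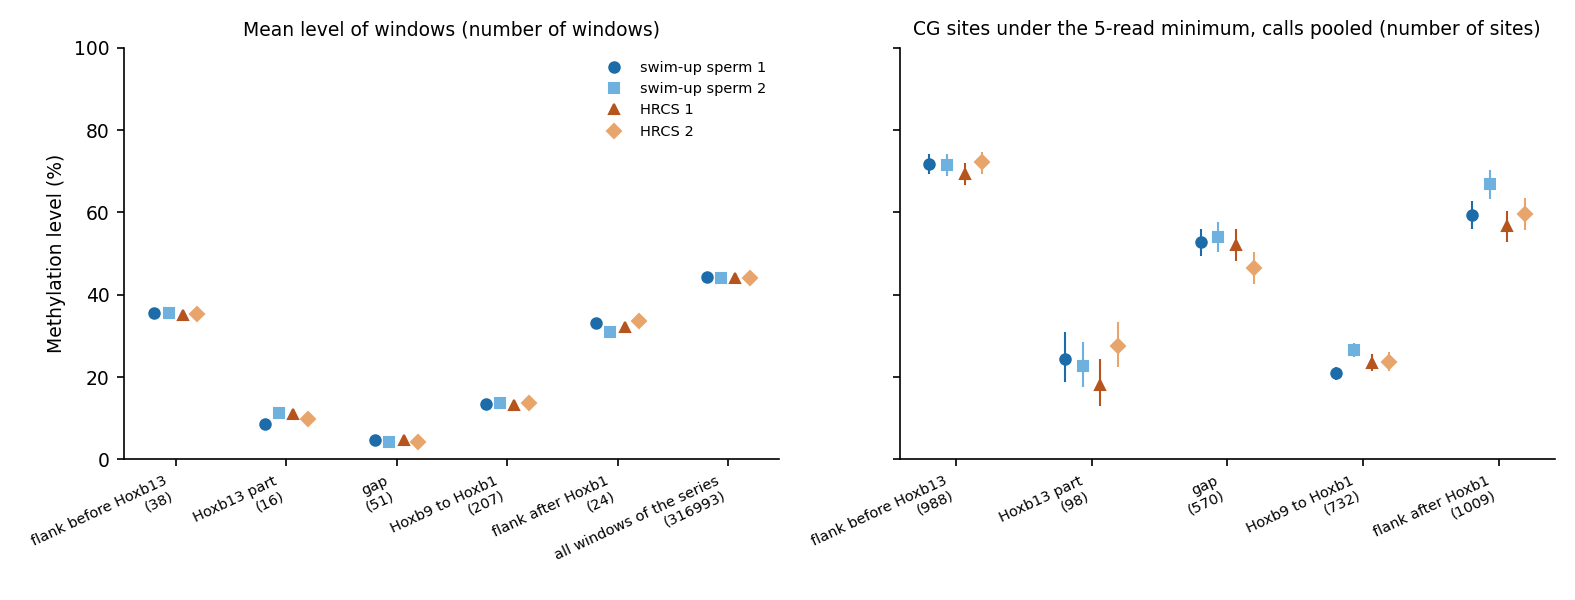
Mean level (%) of the qualifying windows of each part and of the whole series (left) and pooled level (%) of the CG sites under the 5-read minimum (right, bars are 95% Wilson intervals); each point is 1 library, and numbers of windows or sites are in parentheses. The gap is the lowest part on the left (4.24 to 4.80%), and on the right it lies at 46.4 to 54.1%, above Hoxb9 to Hoxb1.

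Within the gap the unmethylated windows lay in patches. The lowest, chr11:96067001-96067200, had 0.741, 0, 0.606 and 0% on 5 sites, and windows at chr11:96065001-96065200 and chr11:96061401-96061600 had at most 0.909% on 10 sites each. A low patch was also found at the start of the non-coding gene Gm53, whose exon 1 had 1.25, 1.09, 1.14 and 0.741% on 39 sites. Its exon 3, nearer to Hoxb9, had 8.83, 6.42, 4.32 and 5.35% on 14 sites. The highest gap window was chr11:96125801-96126000, with 35.4, 39.9, 35.4 and 34.6%, chosen after its values were seen. By CG density, the measured gap windows with 6 to 9 listed sites had a mean of 3.62% (24 windows), compared with 9.47% between Hoxb9 and Hoxb1 (60 windows) and 37.0% in the series (78534 windows). With 3 to 5 sites the gap had 8.57% and the gene-rich stretch 27.0%, and with 10 to 14 sites they had 1.96% and 6.98%. With 15 or more sites both were near 1%, at 1.17% (4 windows) and 1.24% (36 windows).

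The last comparison asked whether the fractions differ, as HRCS are thought to have completed the exchange of histones. By the study's staining assay, however, only a small part of swim-up sperm had not completed it. Most cells of both fractions were thus alike in this respect. A difference confined to that small part would move a level little, so finding none says little about the exchange. No difference was found in the mean level of the cluster. Swim-up sperm had 11.7% ± 0.123 (SD, n = 2) and HRCS 11.7% ± 0.132 (SD, n = 2), a difference of -0.0448 percentage points (two-sided exact permutation test, p = 0.667, where 0.333 is the smallest possible). In edgeR's quasi-likelihood fit, adjusted by Benjamini-Hochberg over the genome, no window of the cluster was called (smallest adjusted p = 0.839), and in the whole series 0.0041% of windows were called (13 of 316993). At an unadjusted p under 0.05 the test gave 8 of 274 windows (2.92%), and 4.61% in the series. With limma on logit levels 0 were called in the cluster and in the series, and 11 windows of the cluster (4.01%) passed without adjustment, compared with 5.72% in the series. Pooling the calls for Fisher's exact test, which takes no account of the spread between libraries, gave 2 calls in the cluster (0.756% of windows in the series), and 22 windows (8.03%) passed without adjustment, compared with 9.66% in the series. In 90 windows of the cluster (32.9%) both HRCS libraries lay on one side of both swim-up libraries, where the share in the series was 32.7%. HRCS was the higher in 48 of these 90. Mean differences over 10 percentage points were found in 8 windows (2.92%), compared with 3.18% in the series. Between single libraries, differences over 10 points were found in 16 windows for the swim-up pair, in 18 for the HRCS pair and in 11 to 17 for the 4 pairs from different fractions.

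**Figure D5:**
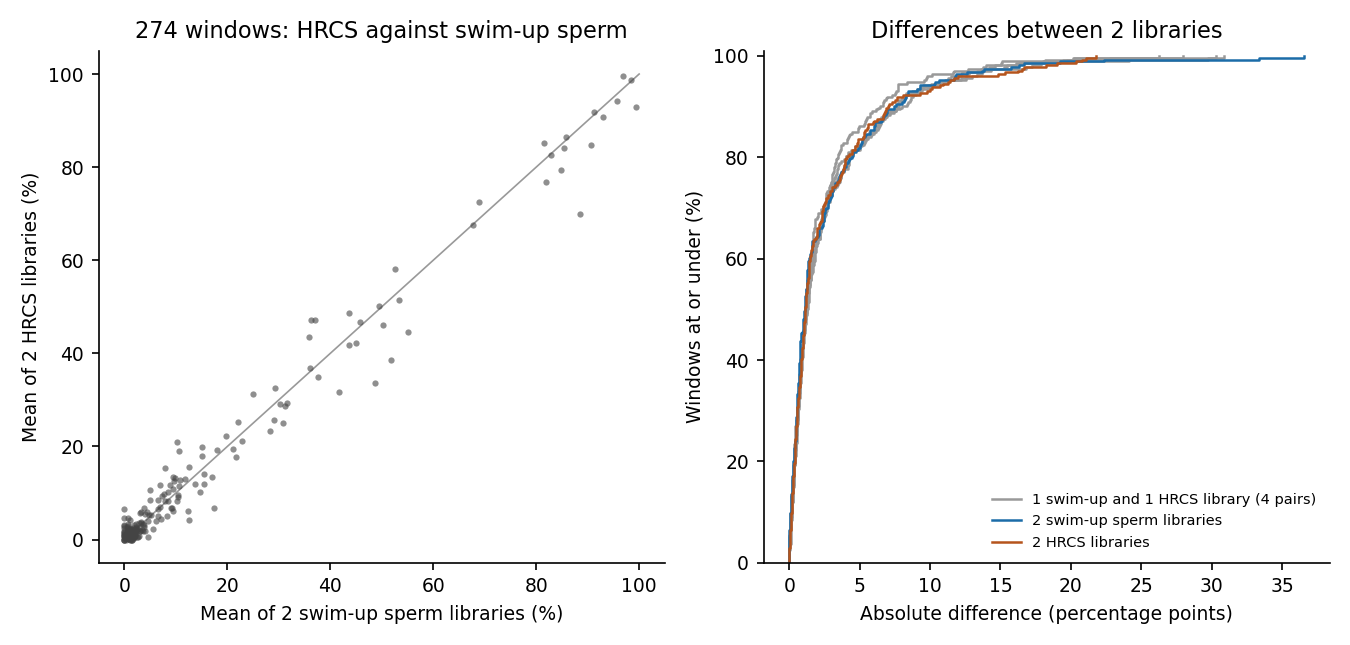
Left, mean level (%) of the 2 HRCS libraries against that of the 2 swim-up libraries for the 274 windows of the cluster, with the line of equality; right, share of windows (%) at or under each absolute difference (percentage points) between 2 libraries. The 6 curves run close together, and at 10 points 16 windows lie beyond for the swim-up pair, 18 for the HRCS pair and 11 to 17 for the pairs from different fractions.

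Across the 274 windows Pearson's r was 0.973 between the swim-up libraries, 0.975 between the HRCS libraries and 0.975 to 0.981 between fractions, given as a description over windows that share their libraries. The mean absolute difference was 2.79 points within swim-up sperm, 2.76 within HRCS and 2.44 to 2.87 between fractions. The one-sided window with the largest difference was chr11:96177801-96178000, 1581 bp before the Hoxb4 start, with 86.7, 90.5, 66.4 and 73.3% on 3 sites (difference -18.7 points, edgeR adjusted p = 1.0). It is also 1 of the 2 windows of Fisher's test (adjusted p = 0.00672), and the other, chr11:96205801-96206000 in Hoxb3, had 1.62, 0.625, 3.24 and 5.00% (adjusted p = 0.0299). Next among the one-sided windows came chr11:96193201-96193400, between Hoxb4 and Hoxb3, with 56.5, 40.7, 30.2 and 37.0%, and chr11:96175401-96175600, between Hoxb5 and Hoxb4, with 50.3, 53.1, 37.6 and 39.3%. HRCS was the higher in chr11:96138401-96138600, just behind Hoxb9 (10.2, 10.2, 13.6 and 28.4%), and in chr11:96149201-96149400, in intron 1 of Hoxb7 (39.4, 33.3, 41.3 and 53.0%). These 5 windows all had intermediate levels or few sites, and each had an adjusted p of 1.0 in edgeR's test.

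Among single sites the largest one-sided difference was at chr11:96205091, the 1 qualifying site of the Hoxb3 start region. It lies in the 5′ UTR, and 6 of 8, 4 of 5, 2 of 6 and 1 of 6 reads were methylated. The site thus rests on 5 to 8 reads per library. A better covered site at chr11:96159242, between the main transcripts of Hoxb7 and Hoxb6, had 45 of 52, 33 of 39, 18 of 34 and 13 of 24 methylated reads, hence 86.5, 84.6, 52.9 and 54.2%. Sites were chosen here for no overlap between the fractions, so the p of 0.333 in the exact permutation test was fixed by that choice. The remaining 3, at chr11:96201722, chr11:96201762 and chr11:96120945, differed by 36.1, 31.9 and -32.8 points, on 9 to 28 reads per library. In the methylated Hoxb7 exon the fractions had 88.3% ± 3.25 in swim-up sperm and 83.1% ± 1.93 in HRCS (SD, n = 2 each), a difference of -5.18 points with no overlap between the fractions (exact permutation test, p = 0.333). Of the 10 spans of main transcripts 5 were lower in HRCS, and the largest difference was -1.33 points in Hoxb7 (exact permutation test, p = 0.333). In 6 spans the libraries of the fractions did not overlap (32.7% of windows in the series, and the spans are neighbours read from the same 4 libraries).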

How the data were processed

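DNA methylation was measured by TGBS in 2 libraries of swim-up sperm and 2 of HRCS. Reads were aligned by the authors to the mm9 build using Bmap (version not given in the sources used here). The deposited values are raw counts per CG site, 1 row for each strand, of reads called methylated and of total reads. As no column is named, the column that is smaller than or equal to the other in every row was read as methylated reads. Removal of duplicate reads is not stated. Here both strands of a site were added (88.7 to 89.6% of calls lie on the minus strand), sites with 5 or more reads in every library were kept, and windows of 200 bp with 3 or more such sites were formed.

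Windows were tested over the whole genome with edgeR 4.0.16 (quasi-likelihood, methylated and unmethylated counts per library, 1 dispersion), with Benjamini-Hochberg adjustment and a threshold of 0.05. Single values were compared by exact permutation over libraries (smallest p 0.333) or by sign changes of differences within libraries (smallest p 0.125). The edgeR window test was run on simulated counts, with a spread between libraries that was chosen and not estimated from these data. Replicate numbers did not pair the libraries. Promoters (RefSeq, GRCm38.p6) and exons (GENCODE M21) were placed on mm9 by the distances between their CG dinucleotides, at least 4, where the pattern occurs once. Of the members, 3 of 10 had a promoter entry, and start regions of all 10 from exon 1 were added after the files were seen. The hairpins of Mir10a and Mir196a-1, with 3 and 2 CG dinucleotides, were not placed. Conversion could not be measured, since lambda DNA had 20 calls in HRCS 1, 8 of them methylated, 2 in HRCS 2, 1 of them methylated, and none in swim-up sperm. Named windows and sites were the 5 with the largest one-sided difference, the 5 highest between Hoxb9 and Hoxb1, the 5 lowest in the gap, the steepest step and the 3 longest runs of each class. The members and lists were chosen with earlier results of these data known. Alternatives were other minimums of reads, other window sizes, single sites, pooled calls, thinning, other tests and leaving out each library.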

Additional observations from a re-analysis of the deposited data

Results flagged for a closer look

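The CG sites of the gap between Hoxb13 and Hoxb9 that lie under the minimum of 5 reads are outside the measurement used for windows. The mean of the 4 libraries was 51.3% methylated (range 46.4 to 54.1%), whereas the qualifying windows of the gap had a mean of 4.50%. The libraries of the fractions did not overlap (53.4% ± 0.912 in swim-up sperm and 49.2% ± 3.99 in HRCS, SD, n = 2 each), with an exact permutation p of 0.333, the smallest possible. The series has no control samples, and the level is given as a description. With 2 libraries in each fraction, single libraries were not tested for standing apart.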

How the results depend on the processing

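The gap stayed below the gene-rich stretch and the flanks above the cluster under the 8 planned settings other than leaving out a library, with differences of -17.3 to -5.80 and of 11.2 to 24.8 points, and without each library in turn (-9.28 to -8.96 and 22.5 to 22.8 points). The gap reversed, to 27.7 points, on the CG sites under the minimum with calls pooled, a setting chosen after seeing the data, and was at -3.81 points over all listed sites. The difference between the fractions, near 0, turned positive with a minimum of 20 reads (0.151), with levels from pooled calls (0.0674), with sites thinned to 5 reads (0.129) and on the sites under the minimum (0.0770). It was -0.528 in windows of 500 bp, -0.584 with 1 site per window and -1.03 over all listed sites (chosen after seeing the data), each with the smallest exact permutation p, 0.333. The same p was given by the positive value at a minimum of 20 reads. It was also given by a minimum of 10 reads (-0.065), windows of 100 bp (-0.0771) and single sites (-0.126). The difference ran from -0.138 to 0.0483 when 1 library was left out. The share of windows between Hoxb9 and Hoxb1 at most 25% methylated, 82.3%, was 85.2% and 87.6% with minimums of 10 and 20 reads, 89.1% and 68.6% in windows of 100 and 500 bp, 68.7% with 1 site per window, 87.3% over single sites and 82.9% after thinning. The share of gap windows over 75% was 2.78% with 1 site per window and 0.471% over single sites. The mean promoter level, 3.27%, was 6.03% within 1 kb of the starts (3 genes) and 8.64% over the start regions of 9 members, a set chosen after seeing the data that includes the single site of Hoxb3. Windows were called again at both higher minimums, in both other window sizes, with 1 site per window, without each library, with limma and with Fisher's test, and calls in the cluster were 0 in these but for Fisher's test, which gave 2 (0.756% of windows in the series). The cause of these changes was not tested.

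The replicate numbers were no pairing in the labels, and deviations of same-numbered libraries had a correlation of -0.00176 over all windows and 0.0901 in the cluster. With a replicate block the cluster held 0 calls and the series 9 in place of 13, and the difference between the fractions was -0.0448 (exact sign-change permutation test, p = 0.5). Without swim-up sperm replicate 1 the series had 36 calls, without swim-up sperm replicate 2 it had 4, without HRCS replicate 1 it had 8 and without HRCS replicate 2 it had 3. In these fits the spread comes from the fraction with 2 libraries and the lone library is assumed to vary alike, so that their 0 calls in the cluster say little about a difference. Depth limits single sites of 5 to 10 reads, at which 1 read moves a level by at least 10 points, and a design of 2 against 2 libraries cannot reach a permutation p under 0.333.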
